A study of Mus musculus with 454 samples.

Results

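The picked vagal sensory neurons compared here carried the target codes GastG and GastP in the header of the deposited read table. They were 60 cells from 5 GastG mice and 45 cells from 3 GastP mice, together 26.5% of the picked cells that carry a target code. The members were chosen by those codes and by a minimum of 2000 genes detected per cell, which every one of these cells passed, and no measured value of a gene entered the choice. The GastG cells came from mouse 7 (5 cells), mouse 8 (8 cells), mouse 41 (13 cells), mouse 42 (18 cells) and mouse 43 (16 cells). The GastP cells came from mouse 9 (15 cells), mouse 10 (12 cells) and mouse 44 (18 cells). The sources used here do not expand the codes, so they are used as written, and nothing is assumed about the tissue layer or organ that either code stands for. Both groups were wild-type C57BL/6 mice (C57BL/6JN in the series text) aged 8 to 12 weeks. No treatment, transgene or deletion is named for either code, and the headers call each mouse "Retro" with a number. Cells of the nodose ganglion were dissociated with papain, collagenase and dispase, picked singly and made into Smart-seq2 libraries. The series as a whole holds 454 samples, picked cells but for 1 droplet (10x) library of nodose cells from mice aged 6 weeks. Codes beginning with Int (IntP, IntM, IntD and IntL) are called Int below, and they entered the same fit with 13 mice.

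The nodose ganglion holds the cell bodies of vagal sensory neurons, whose peripheral axons end in the viscera and whose central axons end in the brainstem. Endings in the wall of the gut fall into broad classes, those that sense stretch and tension of the muscle and those that lie in the mucosa and respond to chemical signals such as gut hormones and serotonin. Single-cell studies have divided these neurons into many types by peptide, receptor and transcription factor genes. A comparison of neurons by target code asks which of those genes differ between neurons that share one code and neurons that share another.

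These libraries held 659986 to 3835738 reads per cell, with a median of 1396301 in GastG and 1637137 in GastP, and 8890 to 12489 detected genes. The pan-neuronal genes Snap25, Tubb3, Slc17a6, Uchl1 and Prph reached 10 reads in every cell of both codes, and Rbfox3 did so in 54 of 60 GastG and 45 of 45 GastP cells. Of the nodose markers, Hoxb5 reached 10 reads in every cell, P2rx2 in 58 and 45, Hoxb6 in 48 and 34, Htr3a in 44 and 28 and Phox2a in 9 and 7. Prdm12, which defines jugular neurons, reached 10 reads in 1 cell of each code. Of the other jugular markers, Isl2 did so in every cell, Runx1 in 23 and 25, Prrxl1 in 17 and 16 and Gfra3 in 4 and 8. The mice fell into 2 sets by number. In mice 7, 8, 9 and 10 every cell held at least 10 reads of the Y-linked gene Ddx3y (mean log2 level 5.21 to 5.52), and in mice 41, 42, 43 and 44 this held for 1 cell in all. Each set held mice of both codes, 2 and 2 in the first and 3 and 1 in the second. The set and the Y-linked reading cannot be told apart. A single mouse, number 44, was the only GastP mouse of the second set, and 7 of its 18 cells held 10 or more reads of the nerve injury gene Sprr1a, described further on.

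No gene passed the threshold between GastG and GastP at this number of mice. A level here is the mean over a mouse's cells of log2(CPM + 1), where CPM scales every cell's reads to one common total, and a difference is the GastG mean minus the GastP mean on that log2 scale, which understates the change of low genes. In limma, 0 of 12705 genes tested (0%) had an adjusted p under 0.05, and the lowest adjusted p was 0.154. At an unadjusted p under 0.05, limma gave 548 genes, 1.54% of those tested higher in GastG and 2.77% lower. Mouse values of the 2 codes did not overlap for 1.11% of genes, higher in GastG, and 1.74%, lower. With edgeR on summed reads 0 genes passed, with 586 at an unadjusted p under 0.05. DESeq2 called 6 genes, all higher in GastG, namely Ccdc129, Dcn, Gnai1, Tbx3, Nnat and Wnt10a. Of these, Ccdc129 and Wnt10a lay near 0. Ccdc129 was at 0 in every GastP mouse and at most at 0.75 in GastG. DESeq2 gave it a log2 change of 23.1, and its unadjusted limma p was 0.401. Wnt10a was at 0.19 to 1.21 in GastG and at most at 0.12 in GastP. The median difference over all genes was -0.03.

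**Figure D1:**
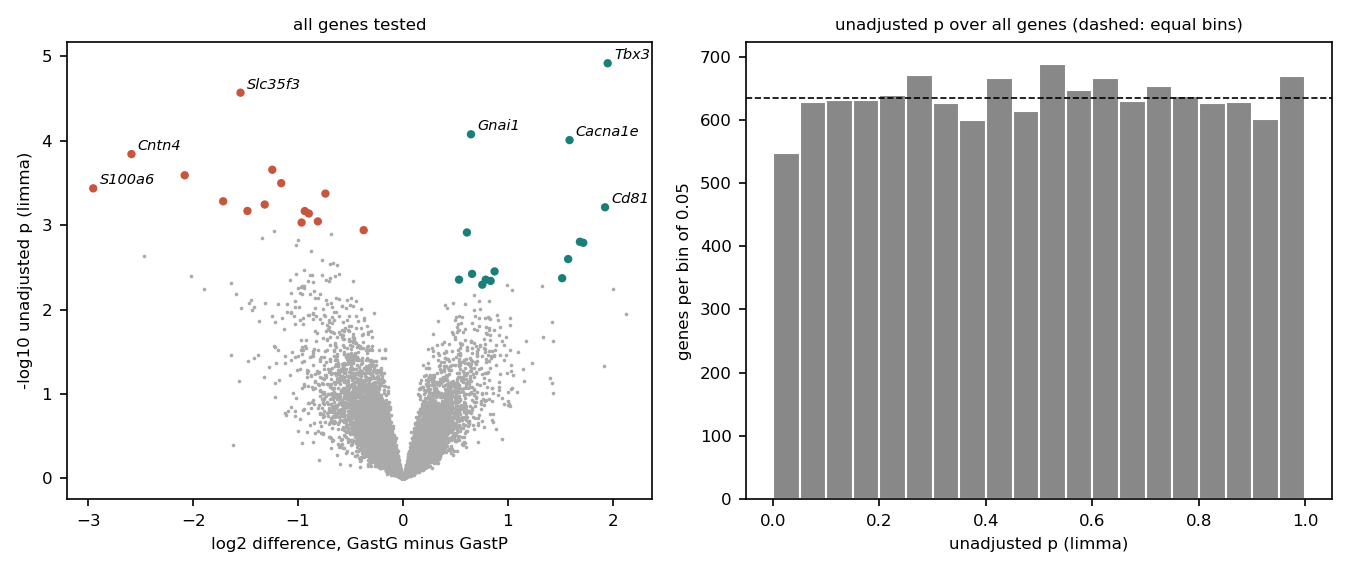
Left, each point is 1 of 12705 genes, with the log2 difference between GastG and GastP mice on the x axis and -log10 of the unadjusted limma p on the y axis; coloured points are the 15 genes of lowest p in each direction. Right, the number of genes per bin of unadjusted p, where the dashed line marks equal bins: the first bin, p under 0.05, holds 548 genes and lies below the line.

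In the fit of all 29 mice the intervals of the differences were narrow on this log2 scale for most genes. That fit takes most of its estimate of spread from mice of the other codes, and the SEs given below come from it too. With the Gast mice alone the lowest limma adjusted p was 0.603, against 0.154 in the fit of all mice. The widths below therefore need not hold for the spread among Gast mice alone. The 95% interval of the difference reached a median of 0.50 either side of the estimate. It was 0.61 for genes at a level of 0 to 2, 0.64 at 2 to 4, 0.44 at 4 to 6, 0.32 at 6 to 8 and 0.26 above 8. For 10192 genes (80.2%) the whole interval lay within 1 log2 unit of 0, and for 12555 (98.8%) within 2. The genes tested include 2634 at a level of 0 to 2, where the scale understates changes. A narrow interval there cannot exclude a large fold change.

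The genes named next are the 15 of lowest unadjusted p in each direction. They were ranked by this contrast, none passed the threshold, and their values are given as a description. Tbx3, a T-box transcription factor gene (chr5:119670534-119684724, GRCm38), had the lowest p of all. Its levels were 6.21, 6.89, 6.33, 5.88 and 5.07 in GastG mice 7, 8, 41, 42 and 43 and 3.9, 4.31 and 4.17 in GastP mice 9, 10 and 44. The lowest GastG mouse, 43, lay above the highest GastP mouse, 10. The difference was 1.95 (SE 0.37, limma adjusted p = 0.154), and 49 of 60 GastG cells against 30 of 45 GastP cells held 10 or more reads. Cacna1e encodes the pore of the R-type voltage-gated calcium channel (chr1:154390806-154884785). Its levels in the same order were 3.15, 3.42, 4.09, 3.22 and 3.50 in GastG and 1.51, 1.64 and 2.52 in GastP. These groups of mice did not overlap either, and the difference was 1.59 (SE 0.35, adjusted p = 0.313). Detection followed, with 10 reads in 40 of 60 GastG cells and 17 of 45 GastP cells.

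Gnai1 encodes an inhibitory G protein alpha subunit. It was a small and even difference, with 7.32, 7.18, 7.45, 7.0 and 7.27 in the GastG mice and 6.43, 6.58 and 6.78 in the GastP mice, a difference of 0.65 (SE 0.14, adjusted p = 0.313). Nearly every cell held the transcript, 59 of 60 and 44 of 45. Chrna3, the alpha3 subunit of the ganglionic nicotinic acetylcholine receptor, had levels of 6.0, 5.28, 7.56, 6.03 and 5.65 in GastG and 4.6, 4.73 and 4.43 in GastP (difference 1.52, SE 0.49, adjusted p = 0.996). GastG mouse 41 stood highest and no GastP mouse reached the lowest GastG mouse. Mrap2, an accessory protein of melanocortin receptors, gave 2.95, 2.59, 2.74, 2.75 and 3.65 against 1.31, 0.49 and 2.29, again with no overlap, and 29 of 60 against 10 of 45 cells held 10 reads.

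In 3 others of the higher genes GastP mouse 44 lay with or near the GastG mice. Cd81, a tetraspanin of the cell surface, had levels of 5.88, 6.41, 7.18, 6.01 and 6.32 in GastG and 3.45, 3.15 and 6.70 in GastP, a difference of 1.93 (SE 0.50, adjusted p = 0.578). Maob, a monoamine oxidase, had 3.6, 5.39, 5.13, 4.29 and 4.45 against 2.12, 2.22 and 4.31. Nnat, an imprinted gene for a small membrane proteolipid, had 3.24, 3.56, 3.47, 2.92 and 3.73 against 1.03, 0.82 and 3.15. GastP mice 9 and 10 were low for all 3, and mouse 44 was inside the GastG range for each. The other 7 genes higher in GastG had smaller differences, from 0.53 for Zadh2 to 0.87 for Trim62, with Ptpdc1, Umps, Golm1, Macrod1 and Ssc4d between them.

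Among the genes lower in GastG, Slc35f3, a member of the solute carrier family that includes nucleotide sugar transporters, had the lowest p (chr8:126138398-126395987). Its levels were 3.42, 3.44, 2.38, 3.76 and 3.54 in the GastG mice and 5.32, 4.89 and 4.35 in the GastP mice. The groups did not overlap, and GastG mouse 41 was the lowest of all. The difference was -1.55 (SE 0.31, adjusted p = 0.172). S100a6, a small calcium-binding protein (chr3:90612894-90614414), had the largest difference toward GastP of all genes tested. It gave 6.86, 5.83, 3.62, 3.61 and 5.42 in GastG and 8.12, 9.88 and 6.06 in GastP, a difference of -2.95 (SE 0.73, adjusted p = 0.519). GastP mouse 44 lay below GastG mouse 7, so the groups overlapped, and 33 of 60 GastG cells against 42 of 45 GastP cells held 10 reads.

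Cntn4, a contactin of the axonal surface (chr6:105677632-106700141), varied more than 3 log2 units within each code. Its levels were 4.14, 2.8, 0.80, 1.79 and 2.16 in GastG and 5.4, 6.62 and 2.76 in GastP (difference -2.59, SE 0.59, adjusted p = 0.367). Mouse 44 was again the lowest GastP mouse and lay among the GastG mice. Olfm2, a secreted olfactomedin, gave 1.24, 3.62, 1.53, 3.05 and 1.98 against 5.48, 4.30 and 3.31, a difference of -2.08. Sema3f, a secreted semaphorin that repels axons, gave 2.9, 2.27, 1.43, 1.80 and 2.14 against 3.65, 4.19 and 2.44, a difference of -1.32. The codes did not overlap for Nt5e, Bcl3, Serpina3i, Armcx6, Etnk2 and Slc30a1. Nt5e, the ectonucleotidase that makes extracellular adenosine, had 1.33, 0.35, 1.12, 1.25 and 1.19 in GastG and 2.65, 1.86 and 2.12 in GastP. Bcl3, a nuclear regulator of NF-kappaB, had 2.55, 1.55, 2.98, 1.54 and 1.74 against 3.14, 5.1 and 3.11. Serpina3i, a serine protease inhibitor gene of a cluster of near-identical copies whose reads may be shared among them, had 0.65, 0.17, 1.45, 0.90 and 0.39 against 1.51, 2.14 and 2.22. Differences of the other 7 genes lower in GastG (Paqr5, Rapgef5, Armcx6, Etnk2, Slc30a1, Fbxo42 and Slc25a1) ran from -1.48 for Paqr5 to -0.37 for Slc25a1.

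**Figure D2:**
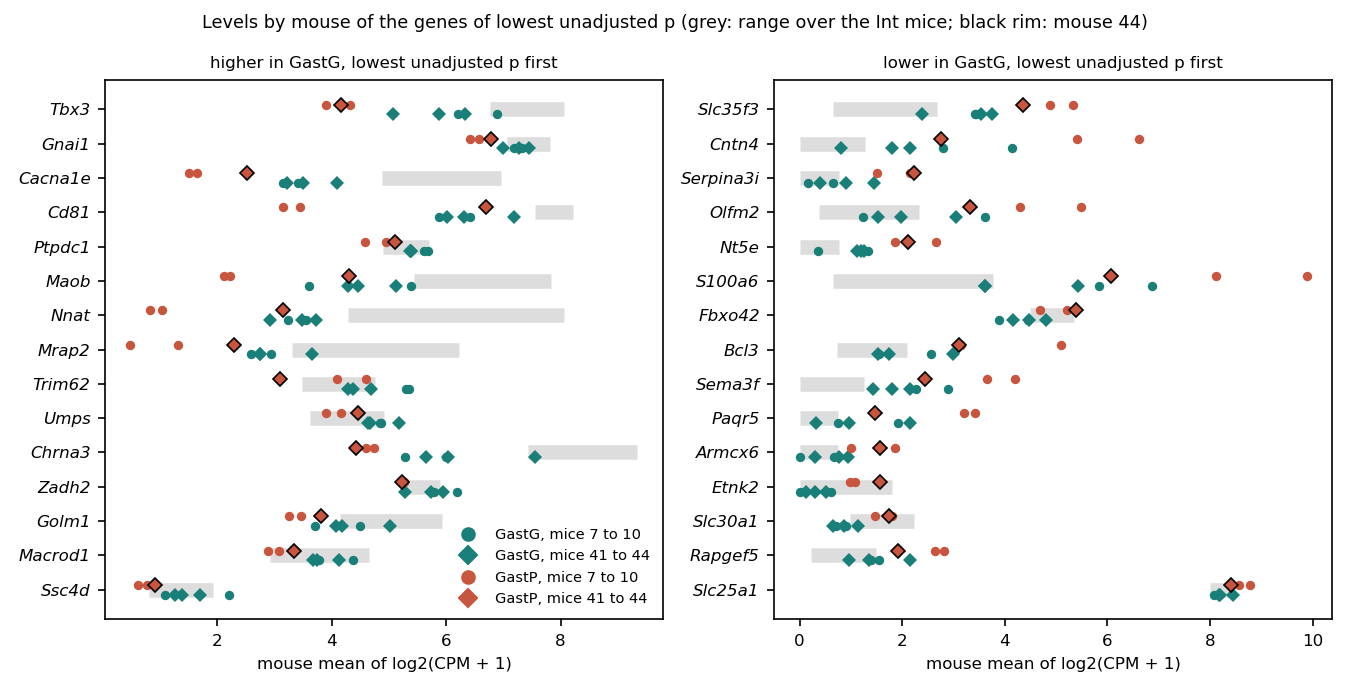
Each point is a mouse's mean log2(CPM + 1) for the 15 genes of lowest unadjusted p in each direction, GastG in green and GastP in red, circles for mice 7 to 10 and diamonds for mice 41 to 44; grey bars span the 13 Int mice and a black rim marks mouse 44. For Cd81, Maob, Cntn4 and S100a6 mouse 44 lies among the GastG mice or beside them, away from GastP mice 9 and 10.

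The number of genes called moved most with mouse 44. Without it, 15 of 12705 genes passed in limma (0.118%), 6 higher and 9 lower in GastG, with 1097 at an unadjusted p under 0.05, and GastP then rested on mice 9 and 10 alone. The 6 higher were Cd81 (difference 3.06, adjusted p = 8.23e-05), the neuronal endosomal protein gene Nsg1 (3.74), Nnat (2.46), Maob (2.4), Cacna1e (1.9) and Inppl1 (1.3), which encodes the lipid phosphatase SHIP2. The 9 lower were Cntn4 (-3.67, adjusted p = 0.00138), S100a6 (-3.93), Mdfic (-3.02), Olfm2 (-2.6), Paqr5 (-2.09), Sema3f (-1.81), Slc35f3 (-1.8), Bhlha9 (-1.74) and Ubac1 (-0.82). In a fit of the mice numbered up to 39, which compares GastG mice 7 and 8 with GastP mice 9 and 10 and takes most of its estimate of spread from mice of the other codes, limma called Tbx3 (2.45, adjusted p = 0.00826), Cd81 (2.85) and Cacna1e (1.71) higher and Cntn4 (-2.54), Zfp41 (-1.97) and the serotonin receptor gene Htr4 (-1.45) lower. Of the 15 genes called without mouse 44, only Cd81, Cacna1e and Cntn4 passed in that fit, and S100a6 was at -2.65 (limma adjusted p = 0.201). In the second set, with mouse 44 as the single GastP mouse and no test, the difference was 1.59 for Tbx3, 1.09 for Cacna1e, -0.20 for Cd81, -1.18 for Cntn4 and -1.84 for S100a6. A test of whether the difference between codes itself differed between the 2 sets called 0 genes in limma (lowest adjusted p = 0.160, 892 genes at an unadjusted p under 0.05). With the set as a term, 0 genes passed between the codes and 596 (4.69%) had an unadjusted p under 0.05. The set term itself called 9 genes in limma, 2 higher and 7 lower in the second set. It had 2179 genes (17.2%) at an unadjusted p under 0.05. The 9 were the Y-linked Ddx3y, Eif2s3y, Kdm5d and Uty, with Rasgrp1, Scn2b, Rab3c, Cxxc5 and 1110007C09Rik. Leaving out mouse 7 gave 1 call, St6galnac5 lower, and leaving out mouse 43 gave 1, Tbx3 higher (2.2, adjusted p = 0.0160).

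Cells with 10 or more reads of the injury gene Sprr1a were found in mice 41 and 44 and in no other of the 8. Sprr1a is a cornified envelope gene that sensory neurons switch on after axon injury, and it reached 10 reads in 3 of 13 cells of GastG mouse 41 and 7 of 18 cells of GastP mouse 44. Those 10 cells held a median of 1824.5 Sprr1a reads and at most 4465, and the other 95 held at most 2. They also held 10 reads or more of 14 to 20 of the 22 injury genes listed (median 17), against 5 to 15 (median 9) in the other 95. The ranges overlapped, since a cell of GastG mouse 7 held 15 of these genes, with 1022 reads of Atf3, and a further cell of mouse 41 held 14, both without that level of Sprr1a. The injury transcription factor gene Atf3 had a median of 1390 reads in the 10 cells and reached 10 reads in 83 of the other 95, with at most 1311. Gpr151, an orphan receptor gene, was found in 10 of 10 and 17 of 95 cells, the peptidase gene Ecel1 in 8 of 10 and 2 of 95, and the tubulin gene Tubb6 in 10 of 10 and 32 of 95. The cells were picked out by Sprr1a, so these counts are a description.

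**Figure D3:**
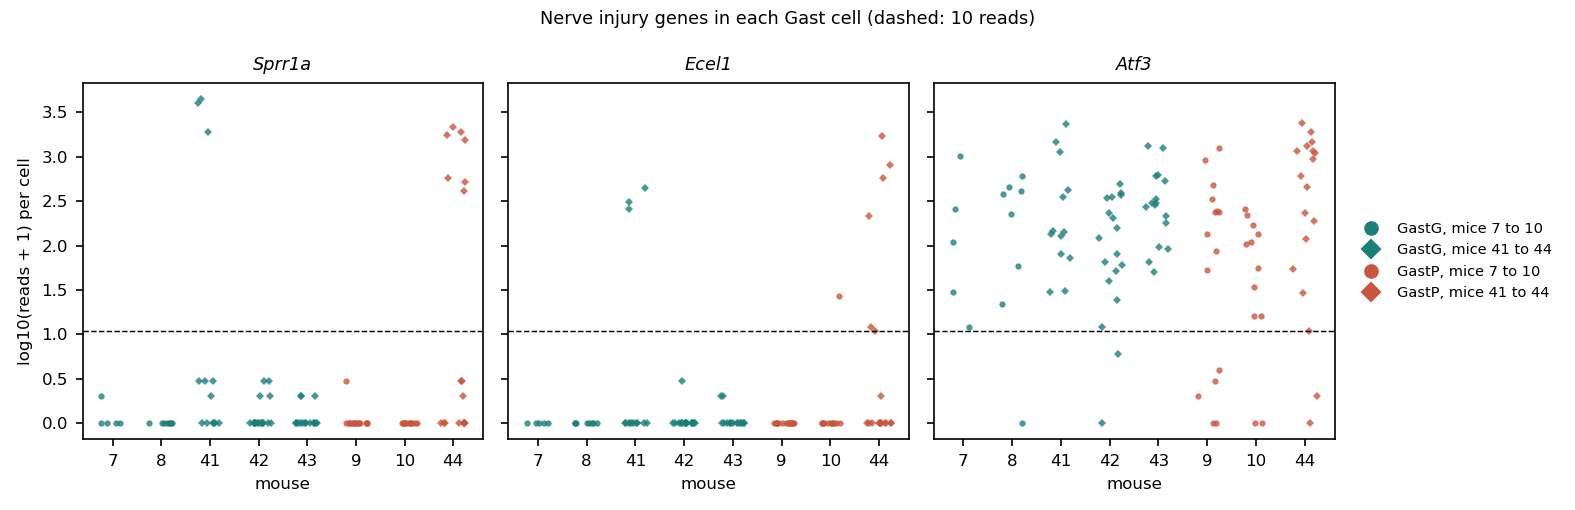
Each point is a cell, with log10(reads + 1) of Sprr1a, Ecel1 and Atf3 on the y axis and its mouse on the x axis; the dashed line is at 10 reads. Sprr1a is above the line in 3 cells of mouse 41 and 7 of mouse 44, and Atf3 in most cells of every mouse.

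The leading differences kept their direction without those cells, but for some of them mice of the 2 codes then overlapped. Without the 10 cells limma called 0 genes, with 646 at an unadjusted p under 0.05, and the difference was 1.79 for Tbx3, 1.43 for Cacna1e, 1.82 for Cd81, -1.81 for Slc35f3, -2.41 for Cntn4 and -2.74 for S100a6. Mouse 44 rose to 3.16 for Cacna1e, 7.28 for Gnai1, 5.46 for Chrna3 and 3.05 for Mrap2. Mice of the codes then overlapped for each of these genes, which were apart over all cells. For Tbx3 mouse 44 rose to 4.98, still under GastG mouse 43 at 5.07, with a limma adjusted p of 0.780. Slc35f3 also stayed apart, with mouse 44 at 5.08. Over all cells, 0 of the 19 injury genes tested passed, and 1 was lower in GastG at an unadjusted p under 0.05. That gene was Csf1, the ligand of the macrophage receptor Csf1r (difference -1.21). The median over the list was -0.34, and it was 0.12 without mouse 44.

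The Int neurons give a scale for these levels. Against the mean of the 4 Int codes, limma called 919 genes for GastG (7.23%), 536 higher and the rest lower, and 1125 genes for GastP (8.85%), 685 higher and 440 lower. With TMM scaling the splits were 440 higher and 488 lower for GastG and 551 and 539 for GastP. The 2 comparisons share the Int mice, which were all numbered up to 39. The GastG and GastP mice of the second set therefore had no Int mice of their own set beside them. In the fit of mice numbered up to 39, limma called 1112 genes for GastG against Int, 826 of them higher. For GastP it called 1097, with 677 higher. The part of the set in these counts was not tested. Leaving out mouse 7 lowered the count for GastG to 470, and the count for GastP was 579 without mouse 9 and 590 without mouse 10. Int levels ran from 6.76 to 8.05 for Tbx3, 4.88 to 6.97 for Cacna1e, 7.55 to 8.22 for Cd81 and 7.43 to 9.34 for Chrna3. For Cacna1e all GastP mice lay below all GastG mice and all GastG mice below all Int mice, and Cd81 had every GastG mouse below every Int mouse. In the other direction Int levels ran from 0.65 to 2.67 for Slc35f3, 0.00 to 1.27 for Cntn4 and 0.66 to 3.76 for S100a6. The GastG mean lay between the GastP and Int means for 10 of the 15 genes higher in GastG (66.7%) and 11 of the 15 lower (73.3%), and for 5526 of all 12705 genes (43.5%). The 30 genes were ranked by the difference between GastG and GastP, so these shares are a description.

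The genes that vagal sensory neurons use to detect stimuli were compared by list, and no member of any of the 22 lists passed the threshold. Among receptors for gut hormones and metabolites, 21 were tested and 0 had an unadjusted p under 0.05 in either direction, with a median difference of 0.00. Cckar, the receptor of the satiety hormone cholecystokinin, had a difference of 0.58 with a 95% interval from -0.81 to 1.97. For Glp1r, the receptor of glucagon-like peptide 1, it was 0.40 (-0.40 to 1.21), and for Npy2r, which binds peptide YY, 0.25 (-0.83 to 1.33). Levels of Cckar spread from 2.79 to 5.02 among GastG mice and from 2.24 to 5.05 among GastP mice, so the codes overlapped almost completely. Gpr65, a proton-sensing receptor, gave 0.08 with an interval from -1.59 to 1.74.

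Of 8 serotonin receptor genes, 1 was higher and 1 lower at an unadjusted p under 0.05. Htr3a, a subunit of the serotonin-gated channel, had levels of 5.97, 6.03, 6.68, 8.04 and 6.81 in GastG and 5.60, 3.12 and 5.64 in GastP, a difference of 1.92 (SE 0.92, adjusted p = 0.996). Its partner subunit Htr3b was 3.62, 4.2, 5.19, 6.27 and 4.76 against 3.34, 3.62 and 3.18 (difference 1.43). Mice did not overlap for Htr3a or Htr3b, though for Htr3b the lowest GastG mouse and the highest GastP mouse both rounded to 3.62. GastG mouse 42 was highest for both. Htr4 was the gene lower in GastG, at -0.56, and the list's median was -0.24. Of 11 opioid, cannabinoid and nicotinic receptor genes, 2 were higher at an unadjusted p under 0.05 and 0 lower, with a median of 0.32. Those were Chrna3 and Chrna5 (0.83), and Chrnb4, which lies in the same cluster, had non-overlapping mice with a difference of 1.42.

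The counts of channel genes stand beside the 4.31% of all genes with an unadjusted p under 0.05. Mechanosensation genes gave 0 higher and 1 lower of 20 (Asic2, an acid-sensing channel, -0.76), with a median of 0.02. Piezo2, the stretch-gated channel, had a difference of 0.39 (95% interval -0.27 to 1.04) and Piezo1 one of -0.70 (-1.70 to 0.29). TRP channels gave 0 higher and 1 lower of 12 (Trpm3, -0.71), with a median of 0.04. Trpv1, the capsaicin receptor, had a difference of 0.16 and Trpa1 one of 0.22. Purinergic receptors gave 0 of 12 in either direction (median -0.00), and sodium channels 0 of 12 (median -0.10). Potassium and HCN channels gave 0 higher and 2 lower of 42, Kcnmb2 among them, with a median of -0.11. Calcium channels gave 2 higher, Cacna1e and the T-type gene Cacna1h (0.79), and 0 lower of 13, with a median of -0.03. Glutamate and GABA receptors and transporters gave 0 higher and 1 lower of 27 (Grm4), with a median of -0.07.

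Signalling and identity genes were counted in the same way. Neuropeptides gave 0 higher and 1 lower of 19 (Vgf, a secreted precursor, -0.93) with a median of -0.03. Calca, which encodes CGRP, had a difference of -0.16 (95% interval -1.12 to 0.80), and Cartpt, which encodes the CART peptide, one of -0.09. Neurotrophin, GDNF family and cytokine receptors gave 0 higher and 1 lower of 19 (Il17ra), with a median of 0.01. G protein and RGS genes gave 2 higher and 1 lower of 40 (Gnai1 and Rgs9 higher, Rgs17 lower) with a median of -0.03. Synaptic vesicle and synaptotagmin genes gave 1 higher and 0 lower of 36 (Cplx1), with a median of -0.02. Transcription factors gave 3 higher and 2 lower of 35, with a median of -0.08. Beside Tbx3 these were Eya2 (0.66) and the homeobox gene Cux2 (0.62) higher, and Ebf3 (-1.12) and Onecut1 (-0.65) lower. HOX genes gave 0 of 8 in either direction (median 0.12).

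The lists with the most members lower in GastG at an unadjusted p under 0.05 were those of axon guidance, adhesion and fibre type. Of 44 axon guidance genes, 6 were lower in GastG at an unadjusted p under 0.05 and 0 higher, with a median of -0.11. They were Sema3f, Slit1 (-1.25), the semaphorin receptor gene Nrp1 (-1.07), the ephrin receptor gene Epha5 (-1.06), Sema3e (-0.85) and Sema6c (-0.84). Of these only Sema6c had no overlap between the codes, with 1.1 to 2.24 in GastG and 2.6 to 2.76 in GastP. Of 55 cadherins and adhesion molecules, 5 were lower and 1 higher, with a median of -0.19. The lower ones were Cntn4, Cdh18 (-1.44), Flrt1 (-1.38), Alcam (-1.22) and Tenm4 (-0.86), and Cntn5, another contactin, was higher (1.24). Of 20 fibre type and calcium-binding genes, 5 were lower and 0 higher, with a median of -0.21. These were S100a6, Lgi1 (-1.46), Plxnc1 (-0.95), S100b (-0.94) and S100a4 (-0.71). The same count over all genes is the 2.77% lower and 1.54% higher given above, and the median over all genes is -0.03. Immediate early and dissociation genes gave 1 higher of 27, the antiproliferative gene Btg2 (0.86), and 0 lower, with a median of 0.18.

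Genes that mark subtypes of vagal neurons were read as the share of a mouse's cells with 10 or more reads. Of 40 such genes in the table, 36 were tested, and 0 passed after adjustment (lowest adjusted p = 0.643 by exact two-sided permutation over the 56 splits of 8 mice, where the smallest possible unadjusted p is 0.0179). Vip, which encodes vasoactive intestinal peptide, was found in 20%, 25%, 30.8%, 27.8% and 31.3% of cells in GastG mice 7, 8, 41, 42 and 43 and in 13.3%, 16.7% and 5.56% in GastP mice 9, 10 and 44. The means were 26.96% ± 4.63 (SD, n = 5) and 11.9% ± 5.7 (SD, n = 3), with an exact permutation p of 0.0179. The groups of mice did not overlap at 10 reads. The difference of 15.1 percentage points became 2.53 at 1 read, 0.531 at 100 reads and -1.01 with each cell thinned to 100000 reads. It therefore stood at that one detection level and not at the others.

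Pnlip, a lipase gene used as a subtype marker, was found in 20%, 12.5%, 15.4%, 5.56% and 12.5% of cells in the GastG mice and 33.3%, 41.7% and 16.7% in the GastP mice. Means were 13.2% ± 5.25 (SD, n = 5) and 30.6% ± 12.7 (SD, n = 3), with an exact permutation p of 0.0357. GastP mouse 44 lay below GastG mouse 7, and the difference kept its sign at 1 read (-7.93) and 100 reads (-4.35). Ctxn3, which encodes a cortexin, was found in 54.4% ± 20.8 (SD, n = 5) and 81.1% ± 13.5 (SD, n = 3), exact permutation p = 0.107. Olfm3 was at 57.4% ± 15.4 and 80.4% ± 19.4 and Rprm at 71.3% ± 11.2 and 91.5% ± 10.3 (SD, n = 5 and n = 3). Each of these had an exact permutation p above 0.05, and for each of these 3 genes mice of the codes overlapped. As log2 levels, 34 of the subtype genes were tested, with 2 higher (Bmp3 and Htr3a) and 3 lower (Ctxn3, Pnlip and Olfm3) at an unadjusted p under 0.05 and a median of 0.09.

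For hormone receptor genes the shares of both codes overlapped. Glp1r was found in 18.7% ± 6.61 of GastG cells and 10.9% ± 2.51 of GastP cells (exact permutation p = 0.125). Cckar was found in 49.2% ± 19.5 and 53.1% ± 25.1, Npy2r in 44.6% ± 15.7 and 51.5% ± 7.88, Gpr65 in 33.2% ± 11.5 and 36.5% ± 7.58, and Oxtr, the oxytocin receptor gene, in 17.04% ± 20.1 and 10.6% ± 5.36 (SD over 5 and 3 mice). Cckar alone ran from 27.8% to 80% among GastG mice and from 25% to 73.3% among GastP mice. P2ry1, a receptor of extracellular ADP, was on in most cells of both codes, 67.5% ± 13.8 and 66.7% ± 16.7. Sst, the somatostatin gene, was at 15.2% ± 14.8 and 30% ± 12.0, and Calca at 36.2% ± 14.1 and 35.2% ± 3.21.

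For each of the subtype genes given next the means of the codes differed by less than the larger of their SDs. For the genes found in a minority of cells the GastG and GastP means were 31.7% and 28.7% for the irritant channel gene Trpa1, 42.9% and 29.8% for Efcab6, 34.96% and 37.8% for Mfap5, 30.5% and 24.4% for Dbh, 20.9% and 20.9% for Npas1, 14.97% and 18.9% for the homeobox gene Prox2, and 23.7% and 14.6% for Ddc. Lower still were Tgm2 (18.04% and 9.26%), Edn3 (14.5% and 2.22%), Bmp3 (15.7% and 2.22%), Npy1r (10.55% and 14.6%), Rbp4 (11.4% and 3.7%), Tac1 (9.44% and 9.07%), Grp (8.04% and 8.33%), Camkv (7.8% and 4.07%), Uts2b (6.26% and 2.78%), Pdk4 (5% and 8.7%) and Runx3 (3.33% and 8.15%). Genes on in more cells were Htr3a (72.2% and 60.6%), Dmkn (55.5% and 63.7%), Gda (51.5% and 52.6%) and Col6a5 (48.3% and 43.9%). The lowest exact permutation p among them was 0.214, for Bmp3.

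**Figure D4:**
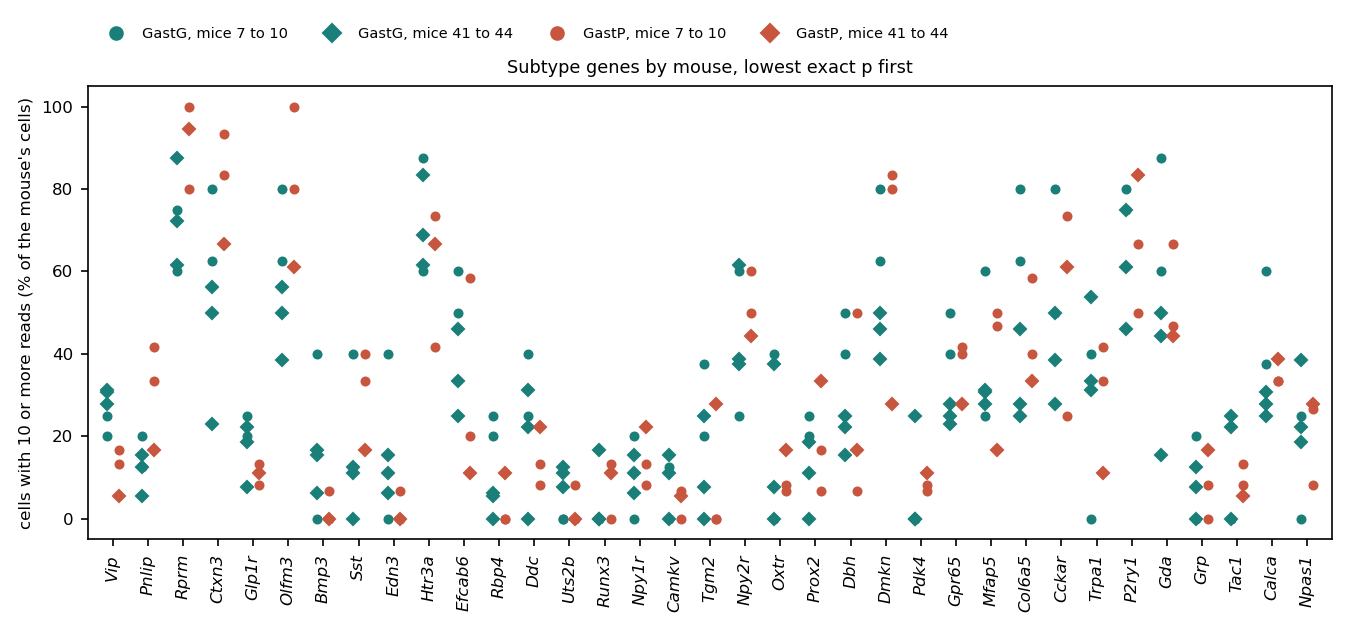
Each point is a mouse's share of cells with 10 or more reads of a subtype gene, in percent of that mouse's cells, GastG in green and GastP in red, circles for mice 7 to 10 and diamonds for mice 41 to 44, with genes ordered by exact permutation p. Mice of the codes are apart for Vip and overlap for Cckar, Npy2r and Calca.

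The mix of neuron types was measured by giving each picked cell the cluster of 10x neurons it correlated with best, over 29 clusters and 472 genes. The Gast cells went to 22 clusters, and 3 of these held 5% or more of them. The most frequent, cluster 6, led by Dcdc2a and Ctxn3, took 42.9% of these cells and holds 4.51% of the 10x neurons. It took 3 of 5, 4 of 8, 3 of 13, 5 of 18 and 7 of 16 cells in GastG mice 7, 8, 41, 42 and 43, and 8 of 15, 8 of 12 and 7 of 18 in GastP mice 9, 10 and 44. The means were 40.9% ± 15.4 (SD, n = 5) and 52.96% ± 13.9 (SD, n = 3), exact permutation p = 0.304 and adjusted p = 0.589 over the 3 clusters. GastG mice 41 and 42 were low, and the other mice lay from 38.9% to 66.7% in both codes. Cluster 5, led by Pkib and Trpa1, took 8.09% ± 9.59 and 14.1% ± 7.56 (exact permutation p = 0.393), and cluster 17, led by Dcdc2a and Htr3b, 6.4% ± 4.49 and 4.63% ± 4.24 (exact permutation p = 0.625). The assignment crosses protocols and is loose. The median best correlation was 0.687, and only 54.3% of the cells kept their cluster with genes centred separately in picked and in 10x cells. With centring, the difference for cluster 6 turned from -12.0 to 14.7 percentage points, so no direction is read from it.

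**Figure D5:**
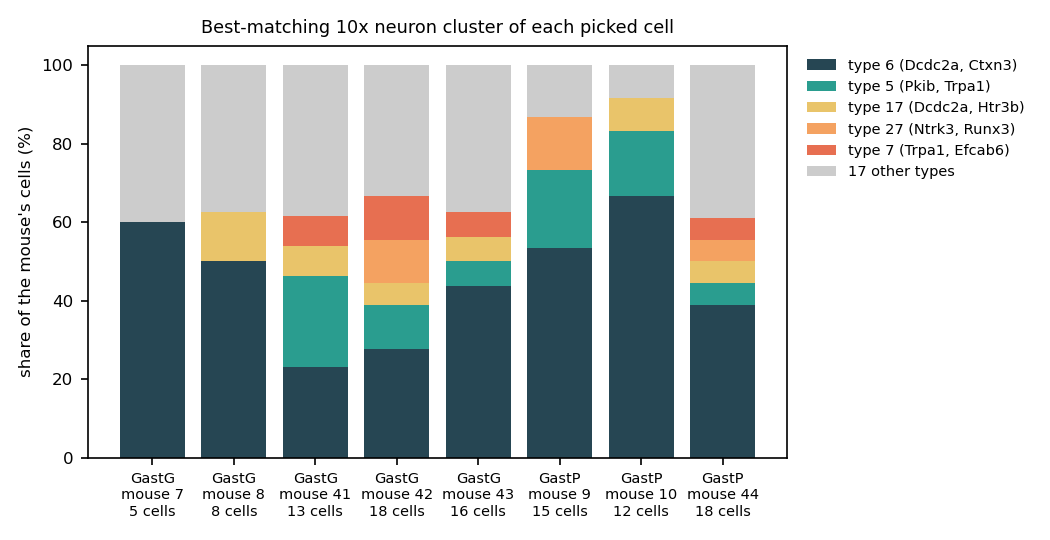
Stacked bars give the share of each mouse's cells, in percent, that matched each 10x neuron cluster best, with the 5 most frequent clusters in colour and the 17 others in grey. Cluster 6 takes 23.1% to 60% of the cells of a GastG mouse and 38.9% to 66.7% of those of a GastP mouse.

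Within cluster 6 the codes were compared again, over mice with 3 to 8 such cells. Of 12172 genes tested, 0 passed in limma (0%), with 1.05% higher and 1.46% lower at an unadjusted p under 0.05, and edgeR also gave 0, with 2.36% at that level. The lowest p in each direction belonged to Irf1 and Tmem72. Irf1, an interferon-induced transcription factor gene, had levels of 5.79, 5.77, 6.04, 5.31 and 6.00 in GastG and 4.36, 4.26 and 4.70 in GastP (difference 1.34, adjusted p = 0.368). Tmem72, a membrane protein gene, was at 0.00, 0.00, 0.37, 0.00 and 0.13 in GastG and 2.37, 2.06 and 1.88 in GastP (difference -2.0, adjusted p = 0.368). Neither gene had overlapping mice. The immediate early gene Egr1 (2.05) and the secreted Wnt modulator gene Dkk3 (2.78) also had positive differences, with Egr1 at 5.22 to 7.18 against 3.94 to 4.78. Leaving out GastG mouse 41 called 3 genes higher (Egr1, Dkk3 and Fos), leaving out the Sprr1a cells called Egr1, and leaving out GastP mouse 44 called S100a6 lower (-2.77, adjusted p = 0.0227).

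Several leading genes of the whole comparison had smaller differences within the cluster, and others had larger ones. The difference was 1.6 for Tbx3, 1.13 for Cacna1e, 1.43 for Cd81, -1.34 for Slc35f3, -1.48 for Cntn4 and -1.99 for S100a6. S100a6 there was 6.14 to 6.81 in GastG and 6.83 to 9.88 in GastP, so mice no longer overlapped. For Nnat the difference was -0.25 within the cluster, against 1.72 over all cells, and for Sema3f -0.56 against -1.32. Larger within the cluster were Chrna3 (1.63 against 1.52), Ssc4d (1.45 against 0.76), Armcx6 (-1.29 against -0.94) and Etnk2 (-1.10 against -0.90).

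Depth and markers of other cells were compared in 15 measures, of which 0 passed (lowest adjusted p = 0.268, exact two-sided permutation over mice). Reads per cell were 1647438 ± 380850 in GastG and 1776238 ± 492723 in GastP (SD, n = 5 and 3), and genes per cell 11396 and 11551. The summed CPM of the 6 nodose neuron markers was 2654 ± 856 in GastG and 1293 ± 523 in GastP (exact permutation p = 0.0357, adjusted p = 0.268), from 1782 to 3765 and from 706 to 1711. Most of that difference was Htr3a, which ran from 595 to 2799 CPM in GastG mice and from 15.7 to 803 in GastP mice. The summed CPM of the 6 Schwann cell markers was 1129 ± 142.6 and 1428 ± 135.5 (exact permutation p = 0.0357, adjusted p = 0.268), nearly all of it Pmp22, with 901 to 1140 and 1241 to 1408 CPM. The 7 satellite glia markers summed to 418.6 to 2119 CPM in GastG mice and 166.9 to 2862 in GastP mice, highest in mouse 44, with Apoe the main part. The part of glial RNA in the differences above was not tested.

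Some markers of other cell types were at or near 0 and others were not. Cldn5 and Tek, which define endothelium, and Hand2 and Slc6a2, which define sympathetic neurons, reached 10 reads in 0 of 60 and 0 of 45 cells. Of the other endothelial markers, Egfl7 did so in 59 GastG and 45 GastP cells and Kdr in 15 and 7. Of the other sympathetic markers, Th, the enzyme that makes L-DOPA, reached 10 reads in 48 and 40 cells (95.3 to 828 CPM per mouse), the vesicular monoamine transporter gene Slc18a2 in 51 and 42, and Dbh in 16 and 10. The part of such cells in the differences above was not tested. The macrophage complement genes C1qa, C1qb and C1qc did so in 1 cell of each code, in mice 41 and 44. The fibroblast gene Dcn, higher in GastG by DESeq2, stood at 378.7 CPM in mouse 7, 33.6 in mouse 43 and 0.59 to 9.45 in the other mice. It reached 10 reads in 20 of 60 GastG and 2 of 45 GastP cells. Of the other fibroblast markers, Col1a2 did so in 11 GastG and 14 GastP cells and Lum in 6 and 3. Col3a1 did so in 4 and 2, Col1a1 in 2 and 0 and Pdgfra in 1 and 0.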

How the data were processed

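Picked cells were sequenced by Smart-seq2, per the labels' protocols. The deposited table gives log2 reads per gene, with a floor of -5.64 (0.02 reads) that was read as 0, and 94.1% of values above the floor were whole reads within 1 part in 1000. Header lines of the authors name the mouse and the code of every cell (unit other). The deposited 10x matrix holds counts of UMIs, and Cell Ranger 2.0.1 and mm10 stand in the submitters' processing notes; for the picked cells no source used here names an aligner. A single column (1) matched no sample title and was not analysed, and 56 cells coded na entered no comparison. Mitochondrial genes, Malat1 and Xist are listed at 0 throughout, so the planned share of mitochondrial reads could not be measured.

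Reads were scaled to CPM by each cell's total, and the mean of log2(CPM + 1) over the cells of a mouse with 4 or more cells was the replicate. The 29 mice of 7 codes entered 1 limma fit (version 3.58.1, R 4.3.3, intensity trend) over 12705 genes reaching 10 reads in 5% of cells or more, with Benjamini-Hochberg adjustment over all of them at 0.05. The scripts were tested on simulated data. EdgeR 4.0.16 and DESeq2 1.42.0 on reads summed per mouse were alternatives. P-values measure the spread between mice. Shares and summed CPM were compared by exact two-sided permutation over mice. The 1087 10x neurons were clustered in scanpy 1.11.5 (leidenalg 0.10.2, 2000 variable genes, 30 components, 15 neighbours, resolution 1.5), and a picked cell went to the cluster of highest Spearman correlation. No doublet caller was run.

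Named genes are, in each direction, the 15 past the threshold, with places filled by lowest unadjusted p, leaving out gene models and ribosomal protein genes; of each list, members past the threshold or the 2 of lowest p; and every subtype gene tested; a few genes named by this rule are not reported here. Other genes were named from the lists by their role, and further genes after their values were seen. Members, lists and tests were chosen with earlier results of these data known. Coordinates are from RefSeq on GRCm38.p6, the same build as mm10.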

Additional observations from a re-analysis of the deposited data

Results flagged for a closer look

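Among 84 groups of 5 GastG mice tested, 9 held a mouse that stood apart, by the gap to its nearest neighbour as a share of the group's range, against a critical value of 0.71 at the 95% level. For normally distributed values chance marks about 1 group in 20. Some of these groups are shares tied at 0 or skewed sums, so that rate need not hold here. For log2 levels, GastG mouse 41 was low for Slc35f3 (2.38, gap 0.759) and mouse 8 low for Nt5e (0.35, gap 0.784). For shares of cells, mouse 7 was high for Mfap5 (60%, gap 0.821). Mouse 43 alone held Pdk4, in 25% of its cells, and mouse 42 alone held Runx3, in 16.7%, so the gap was 1 for both. For summed CPM of markers, mouse 7 was high for mural cells (9.45, gap 0.853) and for fibroblasts (440, gap 0.908), mouse 41 for macrophages (69.4, gap 0.978) and mouse 43 for red blood cells (17.8, gap 0.771). Mouse 7 rests on 5 cells, so 1 cell is 20% of its share. Groups of 3 GastP mice were not tested in this way. The causes were not tested.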

How the results depend on the processing

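The count of 0 genes called between the codes became 2 with no filter on low reads, 6 with DESeq2, 6 in the fit of mice numbered up to 39, other codes included, and 0 to 15 when a mouse was left out. It stayed 0 under the other pseudocounts, TMM, edgeR, the Gast mice alone, every mouse used, and the terms and cells chosen after seeing the data (set of mice, Sprr1a cells). Within cluster 6 the count of 0 became 1 without the Sprr1a cells and 0 to 3 when a mouse was left out. When a mouse was left out, the count against Int ran from 470 (without mouse 7) to 1002 for GastG. For GastP it ran from 579 (without mouse 9) to 1171, with 590 without mouse 10. Both counts were highest with DESeq2, 1348 for GastG and 1294 for GastP. The subtype, cluster and quality counts of 0 stayed 0 under every alternative run. The minimum of 8000 genes left the Gast cells as they were. The cause of these shifts was not tested.

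The following differences (GastG minus GastP) changed sign; none passed the threshold before or after. For shares of cells, in percentage points, at 1 read they were Uts2b -4.28, Gpr65 0.740, Trpa1 -7.51, Dbh -7.78, Npas1 5.01 and Tac1 -3.17. At 100 reads they were Calca -8.88, Oxtr -0.602, Gpr65 5.47, Npy2r 9.44, Prox2 3.66, Gda 5.57, Tgm2 -1.85, Dmkn 4.98, Col6a5 -0.722, Cckar 11.4 and P2ry1 -7.85. With cells thinned to 100000 reads they were Sst 0.0833, Calca -11.4, Vip -1.01, Glp1r -3.33, Gpr65 1.43, Npy2r 14.5, Prox2 3.66, Gda 6.55, Tgm2 -1.85, Col6a5 -2.22, Cckar 13.6, Tac1 -1.53 and P2ry1 -5.68. Leaving out a mouse gave ranges of Calca -4.92 to 3.83, Npas1 -6.34 to 5.18, Col6a5 -3.53 to 11.6, P2ry1 -7.55 to 9.12, Grp -4.46 to 3.87, Trpa1 -5.81 to 10.9, Gda -10.1 to 7.89, Cckar -18.0 to 6.19, Tac1 -3.52 to 2.73, Dbh -2.81 to 18.9, Mfap5 -13.4 to 3.29, Dmkn -26.2 to 1.62 and Prox2 -10.0 to 3.31. Among clusters, centring gave 0.15 for cluster 5 and 14.7 for cluster 6, resolution 1 gave -11.9 for cluster 17, which it merges with cluster 6, and leaving out a mouse gave -0.545 to 3.62 for cluster 17.

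For summed CPM, leaving out a mouse gave -124 to 74.2 for jugular, -579 to 769 for satellite glia, -18.0 to 0.176 for endothelial, -17.0 to 0.942 for mural, -22.8 to 13.8 for macrophage, -4.62 to 0.0819 for red blood cell and -1421 to 397.4 for injury genes, and for reads per cell -286866 to 155063. For log2 differences it gave -1.04 to 0.0111 for Gabrb2, and the fit of mice numbered up to 39 gave 0.24 for P2rx7. Within cluster 6, Nt5e was 0.40 with edgeR, and Nnat was 0.0031 at a pseudocount of 0.1, 0.57 without the Sprr1a cells and -0.67 to 0.44 when a mouse was left out. With 1 GastP mouse in the second set, that set alone gives no test. No paired analysis was possible because the replicate numbers only name cells, and no mouse carries both codes.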
